A study of Mus musculus with 12 samples.

Results

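Of the 14089 genes measured in mouse islets, 8 were followed because they are linked to the dedifferentiation of β cells or to endocrine progenitors: Aldh1a3, Gast, Neurog3, Hes1, Sox9, Rest, Myc and Mycl. They were chosen by symbol, all 8 were present in the table, and all 8 passed the filter on low counts. Pancreatic islets of C57BL/6J mice, freed from the pancreas with collagenase, had been cultured for 24 h under 4 conditions. The combination group received cytokines and ML351, the cytokine group received the cytokine mixture alone, the ML351 group received ML351 alone, and the vehicle group received neither. Each group held 3 RNA-sequencing libraries. The mixture contained IL-1β (5 ng/ml), TNF-α (10 ng/ml) and IFN-γ (100 ng/ml), the same in both groups that received it, and ML351, an inhibitor of the enzyme 12/15-lipoxygenase, was used at 10 µM. The labels used here state neither the age of the mice nor that replicate libraries are separate animals or cultures, so p-values reflect the spread among libraries, which may be technical. The design asks how cytokines and the lipoxygenase inhibitor, alone and together, alter islet transcripts.

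An adult β cell can lose its mature identity under metabolic or inflammatory stress, a process called dedifferentiation, in which genes of glucose sensing and insulin secretion are turned down and genes of other developmental states come on. In the embryonic pancreas, SOX9 and the Notch target HES1 mark multipotent progenitors, HES1 represses Neurog3, and a burst of NEUROG3 commits a cell to the endocrine lineage. ALDH1A3, an enzyme that makes retinoic acid, and gastrin, a peptide hormone of the fetal islet, are known from dedifferentiated β cells of diabetic mice, and REST, a repressor of neuronal genes, is normally shut off in endocrine cells.

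The windows of 250 bases that precede the transcription start of Neurog3 and of Gast are shown because transcripts of both fell under cytokines in the results that follow. They are RefSeq sequence of the plus strand, on which both genes lie, in build GRCm38.p6. Capitals mark the E-box (CANNTG, read on both strands), the core site of basic helix-loop-helix factors such as NEUROG3 itself.
Neurog3 (chr10:62132840-62133089): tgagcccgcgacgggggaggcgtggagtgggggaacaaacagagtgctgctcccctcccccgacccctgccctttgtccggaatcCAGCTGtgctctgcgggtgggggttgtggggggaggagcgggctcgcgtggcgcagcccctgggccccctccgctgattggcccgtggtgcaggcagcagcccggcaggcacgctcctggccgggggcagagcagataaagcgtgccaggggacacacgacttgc
Gast (chr11:100334157-100334406): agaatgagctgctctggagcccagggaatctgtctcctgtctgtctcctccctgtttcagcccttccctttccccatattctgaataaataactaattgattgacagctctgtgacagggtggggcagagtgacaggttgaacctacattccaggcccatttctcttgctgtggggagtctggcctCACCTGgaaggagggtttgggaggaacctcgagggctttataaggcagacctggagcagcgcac
The Neurog3 window was 71.2% G and C, and its single E-box, CAGCTG, lay 165 to 160 bases before the start. The Gast window was 53.2% G and C, and its single E-box, CACCTG, lay 64 to 59 bases before the start. Of 32851 windows of the same length, 66.2% held an E-box, so its presence was common. Neither window held the N-box CACNAG, a site of HES factors found in 36.7% of all windows, or TGGGAA, the core of the RBPJ site of the Notch pathway found in 21.6%. No other motif was searched for, so the windows are not shown to lack sites of HES factors. RefSeq windows were at hand for 3 of the 8 genes, the third being Mycl.

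The libraries held 20208286 to 27193026 counts each. Transcripts of 12 β-cell marker genes, insulin among them, summed to between 258000 and 382000 CPM (counts scaled to library size) in every library, in keeping with the labelled tissue. Most of that sum was insulin: Ins1 and Ins2 averaged 76900 and 243000 CPM with vehicle. Of the 12 genes 10 fell in each cytokine comparison reported below, 83.3% against 37.2% and 36.4% of all genes. Their median log2 fold changes were -2.38 with cytokines against vehicle and -2.41 with the combination against ML351. Transcripts of acinar cells, which make digestive enzymes, differed widely between libraries. The summed level of 20 acinar markers was 1090 to 1620 CPM in the combination libraries, 47.3 to 953 CPM in the cytokine libraries, 209 to 395 CPM in the ML351 libraries and 254 to 759 CPM in the vehicle libraries, and none of the 20 was at 0 in any library. The replicates of a group were distinct libraries: no pair differed by as little as sampling noise.

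Cytokines lowered or raised 7 of the 8 genes, whether ML351 was absent or present. With cytokines against vehicle, Neurog3, Aldh1a3, Gast and Hes1 fell and Myc, Mycl and Rest rose. With the combination against ML351, Neurog3, Aldh1a3 and Gast fell and Myc, Mycl, Rest and Sox9 rose. These calls rest on edgeR's quasi-likelihood test across all genes at an adjusted p of 0.05. With cytokines against vehicle the test called 72.5% of the whole transcriptome, 35.3% as higher and 37.2% as lower. With the combination against ML351 it called 71.5%, 35.2% as higher and 36.4% as lower. The 7 calls among 8 genes are to be read against a transcriptome in which most genes were called. Counts for the lists of other genes below are to be read against the same shares. Leaving out any 1 library gave 5 to 7 calls in each comparison. For 7 of the 8 genes the CPM values of the cytokine and vehicle libraries did not overlap, against 76.6% of all genes, and for 7 of 8 those of the combination and ML351 libraries did not overlap, against 74% of all genes. The 2 comparisons share no library, although all 12 libraries share 1 estimate of spread.

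**Figure D1:**
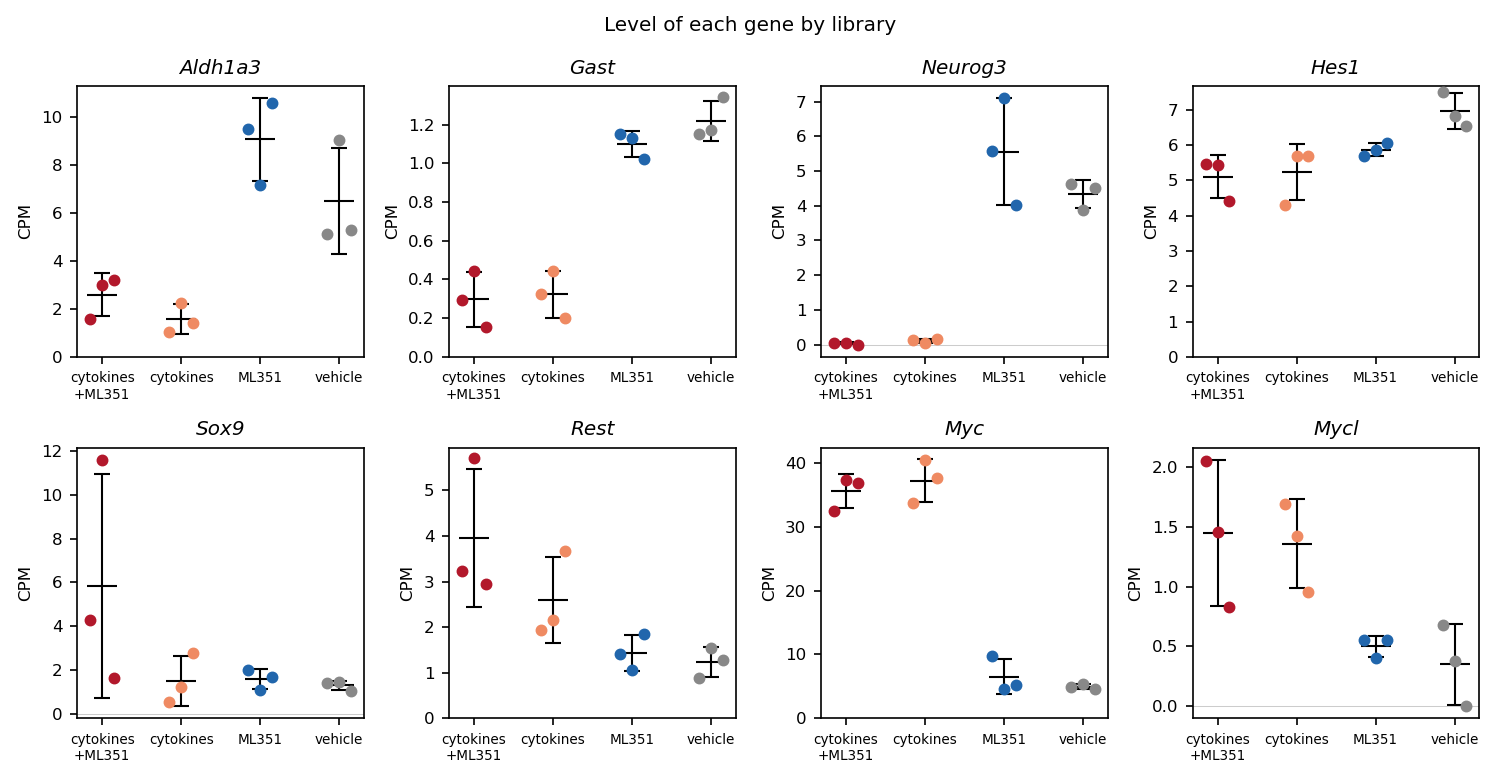
Level of each of the 8 genes in CPM (linear axes, each starting at or just under 0), with 1 point per library and the mean ± SD of 3 libraries for cytokines with ML351, cytokines, ML351 and vehicle. Neurog3 lies between 0 and 0.151 CPM in the 6 libraries with cytokines and between 3.88 and 7.1 CPM in the 6 without, whereas Sox9 spreads between 1.66 and 11.6 CPM within the combination group.

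Aldh1a3 (chromosome 7, 66390890 to 66427517, GRCm38) encodes an aldehyde dehydrogenase that turns retinal into retinoic acid. Its level was 1.56, 3 and 3.21 CPM in the combination libraries and 1.05, 2.26 and 1.41 CPM in the cytokine libraries, against 9.52, 7.18 and 10.6 CPM in the ML351 libraries and 5.14, 9.06 and 5.29 CPM in the vehicle libraries. All 6 libraries with cytokines lay below all 6 without. The level averaged 1.57 ± 0.62 CPM with cytokines and 6.5 ± 2.22 CPM with vehicle (± SD of 3 libraries each; log2 fold change -2.06 with SE 0.33, edgeR adjusted p = 7.9e-05). It averaged 2.59 ± 0.898 CPM with the combination and 9.08 ± 1.73 CPM with ML351 (log2 fold change -1.8 with SE 0.32, edgeR adjusted p = 0.00016). In whole islets, fewer cells of a type and less RNA per cell cannot be told apart, here or for the genes below. Vehicle replicate 2 stood above the other vehicle libraries, and both calls were kept when any 1 library was left out, at log2 fold changes between -2.41 and -1.54.

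Genes that supply, limit or read retinoic acid moved in both directions. Of 20 listed genes of the retinoid pathway 13 were measured. With cytokines against vehicle 4 rose and 3 fell (median log2 fold change -0.02, against -0.024 over all genes), and with the combination against ML351 6 rose and 3 fell (median 0.26, against -0.022 over all genes). The rises were 30.8% and 46.2%, against 35.3% and 35.2% of all genes. Without ML351 replicate 3, 2 rose with the combination. Dhrs9, which encodes a retinol dehydrogenase, rose by 3.89 on the log2 scale with cytokines and by 2.91 with the combination against ML351. Dhrs3, which encodes a reductase that turns retinal back into retinol, rose by 1.54 and 1.45. Rbp4, which encodes the retinol carrier of plasma (-2.7 and -2.26), and the receptor gene Rxra (-0.51 and -0.34) fell in the same comparisons. Rbp4 is also among 8 markers of δ cells and pancreatic polypeptide cells, all of which fell in both (medians -2.91 and -2.72). The part of these cells in the fall of Rbp4 was not tested. Aldh1a1, a relative of Aldh1a3 with the same activity, rose with the combination against ML351 (1.75, edgeR adjusted p = 0.042) and had a log2 fold change of 1.51 with cytokines against vehicle (edgeR adjusted p = 0.096). Its level was 3.32, 2.65 and 3.89 CPM with the combination, 0.363, 2.7 and 2.12 CPM with cytokines, 2.08, 0.437 and 0.433 CPM with ML351 and 0.849, 0.327 and 0.598 CPM with vehicle. Cytokine replicate 1, its lowest library with cytokines, also had the least acinar transcripts, and 12 of 20 acinar markers rose and 1 fell with the combination against ML351. Their part in the Aldh1a1 call was not tested.

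Gast (chromosome 11, 100334407 to 100336996) encodes gastrin. It was near the lower limit of what these libraries record, with 19 counts in the combination libraries, 21 in the cytokine libraries, 84 in the ML351 libraries and 81 in the vehicle libraries, each summed over 3. Its level was 0.29, 0.442 and 0.155 CPM with the combination and 0.323, 0.442 and 0.202 CPM with cytokines, against 1.15, 1.13 and 1.02 CPM with ML351 and 1.15, 1.17 and 1.34 CPM with vehicle. The 6 libraries with cytokines lay below the 6 without. The log2 fold change was -1.9 with cytokines against vehicle (SE 0.42, edgeR adjusted p = 0.00063) and -1.85 with the combination against ML351 (SE 0.42, edgeR adjusted p = 0.00089). By counts alone, the cytokine libraries held 26.6% of the vehicle level (95% interval 15.6% to 43.4%) and the combination libraries 27.7% of the ML351 level (15.9% to 46%). Such intervals cover counting error only. Gast reached the lowest level that every measured gene attains in 3 or more libraries (0.503 CPM) only in the libraries without cytokines, as did Neurog3.

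Neurog3 (chromosome 10, 62133090 to 62134763), the gene of the endocrine commitment factor, had the largest fold change of the 8 genes. It had 1, 1 and 0 counts in the combination libraries and 3, 1 and 3 in the cytokine libraries, against 131, 195 and 102 in the ML351 libraries and 109, 83 and 98 in the vehicle libraries. Islets without cytokines held Neurog3 transcripts in all 6 libraries, and islets with cytokines were close to none. Its level averaged 0.107 ± 0.0524 CPM with cytokines and 4.34 ± 0.403 CPM with vehicle (± SD of 3 libraries each; log2 fold change -5.26 with SE 0.39, edgeR adjusted p = 1.6e-09). It averaged 0.031 ± 0.027 CPM with the combination and 5.56 ± 1.54 CPM with ML351 (log2 fold change -7.21 with SE 0.46, edgeR adjusted p = 2.5e-10). By counts, cytokine libraries held 2.48% of the vehicle level (95% interval 0.986% to 5.17%) and combination libraries 0.572% of the ML351 level (0.069% to 2.08%). These count intervals cover counting error only. The edgeR intervals of the log2 fold changes (-6.08 to -4.45 and -8.18 to -6.24) are narrower still. With so few counts, the SEs given for Neurog3 understate its uncertainty.

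Neurog3 shares 273 exonic bases with Fam241b, which lies on the opposite strand, and the libraries do not record strand. Fam241b (2010107G23Rik in the count table) was at 19.7 to 24.6 CPM in every library, with log2 fold changes of 0 with cytokines against vehicle (edgeR adjusted p = 0.99) and 0.16 with the combination against ML351 (adjusted p = 0.12). Its levels in libraries with and without cytokines fell in that same range.

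Genes that NEUROG3 switches on in the embryonic pancreas, most of which adult islet cells continue to express, were mostly lower with cytokines. Of 19 listed genes 17 were measured. With cytokines against vehicle 2 rose and 14 fell (median log2 fold change -1.46), and with the combination against ML351 3 rose and 14 fell (median -1.44). The falls were 82.4% of the measured genes in both comparisons, against 37.2% and 36.4% of all genes. Among the falls were Fev, an ETS factor of endocrine precursors (log2 fold changes -5.1 and -5.73), Nkx2-2, a factor of several islet cell types (-2.6 and -2.29), and Neurod1, a factor that β cells keep (-1.85 and -1.98). Rises were those of the cell-cycle inhibitor gene Cdkn1a (3.01 and 2.81) and of Insm1, a zinc-finger factor of endocrine cells (0.37 and 0.35), joined by Amotl2 with the combination (0.32). Genes of multipotent pancreatic progenitors were also mostly lower. Of 13 measured of 19 listed, 1 rose and 8 fell with cytokines against vehicle (median -1.12), and 0 rose and 8 fell with the combination against ML351 (median -0.61). The falls were 61.5% in both comparisons, against the same shares of all genes. Among the falls were Pdx1, which adult β cells need (-3.35 and -3.29), Hhex, a gene of δ cells in the adult islet (-2.76 and -1.82), and Gata6 (-1.43 and -0.91). The single rise, of the growth factor receptor gene Fgfr2 with cytokines (1.6, edgeR adjusted p = 0.035), was lost when vehicle replicate 2, vehicle replicate 4, cytokine replicate 3 or cytokine replicate 4 was left out.

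Hes1 (chromosome 16, 30064384 to 30067796), the Notch-driven repressor of Neurog3, had the smallest fold change of the genes called with cytokines. Its level was 5.47, 5.43 and 4.41 CPM with the combination, 4.31, 5.69 and 5.69 CPM with cytokines, 5.69, 5.87 and 6.06 CPM with ML351, and 7.51, 6.82 and 6.54 CPM with vehicle. The vehicle libraries lay above the other 9, the combination libraries lay below the ML351 libraries, and the cytokine libraries reached up to the lowest ML351 library. Hes1 fell with cytokines, to 5.23 ± 0.796 CPM against 6.96 ± 0.501 CPM with vehicle (± SD of 3 libraries each; log2 fold change -0.41 with SE 0.15, edgeR adjusted p = 0.022). That call was lost without vehicle replicate 1 (-0.36, adjusted p = 0.085) or without cytokine replicate 1 (-0.28, adjusted p = 0.13). With the combination against ML351 the log2 fold change was -0.2 (95% interval -0.52 to 0.12, edgeR adjusted p = 0.25). Neurog3 was lower in both comparisons.

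Genes of the Notch pathway moved in both directions. Of 30 listed genes 27 were measured, and 7 rose and 14 fell with cytokines against vehicle (median log2 fold change -0.86), while 6 rose and 14 fell with the combination against ML351 (median -0.62). The falls were 51.9% of the measured genes in both comparisons, against 37.2% and 36.4% of all genes. Among receptors and ligands, Notch2 (2.49 and 2.01) and the ligand gene Dll1 (1.87 and 1.46) rose, while Notch1 (-1.11 and -1.51) and Dll4 (-2.42 and -3.3) fell. Jag1, another ligand gene, had log2 fold changes of 0.25 and 0.38 (edgeR adjusted p = 0.32 and 0.14). Adam17, which encodes a protease that cleaves Notch receptors, rose (1.58 and 1.51), as did Rbpj, the DNA-binding partner (0.47 and 0.59). Of the target genes, Heyl (-4.57 and -4.44) and Hey1 (-2.06 and -2.34) fell. Notch1, Dll4, Hey1 and Heyl are also expressed in vessels, and the summed level of 13 endothelial markers was 21.9 to 26.6 CPM in the combination libraries, 32.3 to 45.6 CPM in the cytokine libraries, 159 to 168 CPM in the ML351 libraries and 137 to 156 CPM in the vehicle libraries. All 13 endothelial markers fell in both comparisons, and their part in the Notch counts was not tested.

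Sox9 (chromosome 11, 112782224 to 112787760), a factor of pancreatic progenitors that adult duct cells keep, had the widest edgeR 95% intervals of the 8 genes in both cytokine comparisons. Those of Neurog3 were too narrow to rank. Its level was 4.3, 11.6 and 1.66 CPM in combination replicates 1, 2 and 4 and 0.524, 1.23 and 2.77 CPM in cytokine replicates 1, 3 and 4. It was 2, 1.09 and 1.69 CPM in ML351 replicates 1, 2 and 3 and 1.4, 1.45 and 1.06 CPM in vehicle replicates 1, 2 and 4. Combination replicates 1 and 2 stood above all other libraries, while combination replicate 4 lay within the range of the ML351 group. The level averaged 5.84 ± 5.13 CPM with the combination and 1.59 ± 0.46 CPM with ML351 (± SD of 3 libraries each; log2 fold change 1.88 with SE 0.7, edgeR adjusted p = 0.035). The groups overlapped, and the call was lost in 8 of 23 alternatives. Among these were leaving out combination replicate 2 (0.92, adjusted p = 0.15), leaving out ML351 replicate 1 (2.08, 0.056), 2 (1.67, 0.1) or 3 (1.93, 0.079), limma-voom (1.58, 0.1) and a fit of only the 2 groups (1.89, 0.071). With cytokines against vehicle the log2 fold change was 0.18 (95% interval -1.53 to 1.9, edgeR adjusted p = 0.84), and it was -0.6 without cytokine replicate 4.

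Acinar marker levels are given beside Sox9 because their extremes coincided. The cytokine library with the least Sox9 (replicate 1) had the lowest summed acinar level of all 12 libraries, 47.3 CPM, and the library with the most Sox9 (combination replicate 2) had the highest, 1620 CPM. Combination replicate 4, at 1.66 CPM of Sox9, had an acinar sum of 1090 CPM, above every library outside its group. With the mean level of the acinar markers as a covariate, the Sox9 difference of the combination against ML351 was 0.82 on the log2 scale (edgeR adjusted p = 0.42). That covariate ran from 5 to 5.49 log2 CPM in the combination libraries and from 1.7 to 3.33 in the ML351 libraries. As the 2 groups did not overlap in it, the fit cannot tell acinar content and treatment apart. The summed level of 18 ductal markers was 5490 to 6150 CPM with the combination, 4550 to 5930 CPM with cytokines, 2110 to 2510 CPM with ML351 and 1980 to 2440 CPM with vehicle, and none of the 18 was at 0 in any library. Of these markers 9 rose and 6 fell in each cytokine comparison. The duct keratin gene Krt19 was at 74, 63.5 and 61.2 CPM with the combination, 4.84, 59 and 15.9 CPM with cytokines, 40.9, 3.28 and 3.23 CPM with ML351 and 7.64, 3.41 and 2.53 CPM with vehicle. Krt19 was high in all combination libraries and in single libraries of the cytokine and ML351 groups. The library with the most Sox9 also had its group's highest summed level of 14 stellate and fibroblast markers in the combination, cytokine and vehicle groups. These sums were 183, 121 and 387 CPM. With ML351 it did not: replicate 1, with the most Sox9 of that group, had the lowest sum, 122 CPM. The part of exocrine, stellate or fibroblast cells in the Sox9 levels was not tested.

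**Figure D2:**
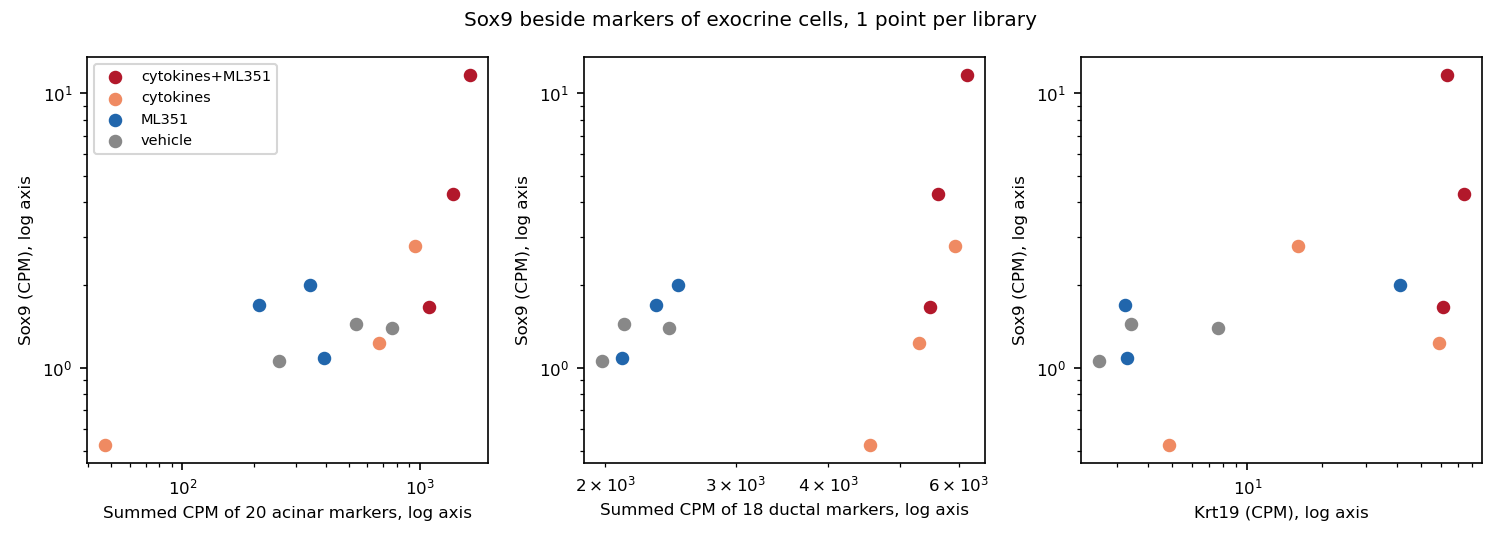
Sox9 (CPM, log axis) against the summed CPM of 20 acinar markers, the summed CPM of 18 ductal markers and the CPM of Krt19 (log axes), with 1 point per library coloured by group. Cytokine replicate 1 is lowest for both Sox9 (0.524 CPM) and the acinar sum (47.3 CPM), and combination replicate 2 is highest for both (11.6 and 1620 CPM).

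Rest (chromosome 5, 77265491 to 77286432) encodes the repressor of neuronal genes that mature β cells keep silent. Its level was 3.23, 5.7 and 2.95 CPM with the combination and 1.94, 2.16 and 3.68 CPM with cytokines, against 1.4, 1.06 and 1.85 CPM with ML351 and 0.891, 1.54 and 1.29 CPM with vehicle. Every library with cytokines lay above every library without, the nearest being cytokine replicate 1 and ML351 replicate 3. Rest averaged 2.59 ± 0.948 CPM with cytokines and 1.24 ± 0.328 CPM with vehicle (± SD of 3 libraries each; log2 fold change 1.06 with SE 0.34, edgeR adjusted p = 0.011). It averaged 3.96 ± 1.51 CPM with the combination and 1.44 ± 0.398 CPM with ML351 (log2 fold change 1.47 with SE 0.33, edgeR adjusted p = 8e-04). The first call was lost without vehicle replicate 1 (0.86, adjusted p = 0.057) or cytokine replicate 4 (0.72, adjusted p = 0.085). As with Sox9, combination replicate 2 was the highest library of its group and cytokine replicate 1 the lowest of its group. In each group the library with the most Rest also had the highest summed level of 14 stellate and fibroblast markers, at 183 CPM with the combination, 121 CPM with cytokines, 288 CPM with ML351 and 387 CPM with vehicle. The other libraries were at 50.7 and 57.5 CPM with the combination, 88.4 and 85.5 CPM with cytokines, 122 and 144 CPM with ML351 and 228 and 132 CPM with vehicle, and no marker was at 0. Of these markers 2 rose and 8 fell with cytokines against vehicle and 2 rose and 5 fell with the combination against ML351. Their part in the Rest levels was not tested.

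Target genes of REST, which it represses outside neurons and endocrine cells, moved in both directions. Of 22 listed genes 18 were measured, and 5 rose and 9 fell with cytokines against vehicle (median log2 fold change -0.25), while 4 rose and 9 fell with the combination against ML351 (median -0.18). The falls were 50% in both comparisons, against 37.2% and 36.4% of all genes. The rises were 27.8% and 22.2%, against 35.3% and 35.2%. The glutamate receptor gene Gria2 (log2 fold changes -4.09 and -4.15), the gap junction gene Gjd2, which couples β cells (-2.79 and -2.58), and the vesicle gene Syp (-1.67 and -1.77) fell. The tubulin gene Tubb3 (1.29 and 1.09), Vgf (1.03 and 0.59) and Syt7 (0.7 and 0.73) rose. Of 14 corepressor genes, all measured, 2 rose and 7 fell with cytokines (median -0.18) and 3 rose and 8 fell with the combination (median -0.26). Here the falls were 50% and 57.1% and the rises 14.3% and 21.4%, against the same shares of all genes. The histone methyltransferase gene Ehmt2 rose (0.68 and 0.38). The scaffold gene Sin3a (-0.81 and -0.59) and the deacetylase gene Hdac1 (-0.68 and -0.55) fell, and Rcor1, the CoREST gene, was at -0.1 and 0.01 (edgeR adjusted p = 0.41 and 0.94).

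Rest belongs to the genes that β cells normally keep off, called disallowed genes, and most of that list rose. Of 19 listed genes 18 were measured, Rest among them, and 11 rose and 3 fell with cytokines against vehicle (median log2 fold change 1.01), and 13 rose and 3 fell with the combination against ML351 (median 1.36). The rises were 61.1% and 72.2%, against 35.3% and 35.2% of all genes. Hexokinase 2 (Hk2; 3.92 and 3.46), the ADP-ribosyltransferase gene Parp3 (3.61 and 3.29) and Zyx, of focal adhesions (3.44 and 3.46), were among the rises, and the chemokine gene Cxcl12 fell (-1.07 and -0.97). Other cells of an islet preparation express several of these genes. Of 15 macrophage markers 10 rose and 1 fell with cytokines and 12 rose and 1 fell with the combination, and their summed level was 322 to 328 CPM with the combination, 362 to 380 CPM with cytokines, 173 to 194 CPM with ML351 and 231 to 236 CPM with vehicle. No macrophage marker was at 0 in any library, and their part in the disallowed genes was not tested.

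Genes of the mature β cell were mostly lower in the same comparisons. Of 20, all measured, 1 rose and 16 fell with cytokines against vehicle (median log2 fold change -1.97) and 1 rose and 17 fell with the combination against ML351 (median -2.06). The falls were 80% and 85%, against 37.2% and 36.4% of all genes. The hormone gene Ucn3 (-5.03 and -4.8), the factor gene Mafa (-4.63 and -4.59) and the glucose transporter gene Slc2a2 (-3.95 and -4.01) fell, and another glucose transporter gene, Slc2a1, rose (3.95 and 3.93).

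Myc (chromosome 15, 61985391 to 61990374) encodes a transcription factor of growth and ribosome production. It was at 32.5, 37.4 and 36.9 CPM with the combination and 33.7, 40.4 and 37.6 CPM with cytokines, against 9.69, 4.55 and 5.28 CPM with ML351 and 4.88, 5.42 and 4.56 CPM with vehicle. The 6 libraries with cytokines stood far above the 6 without, among which ML351 replicate 1 was the highest. Myc averaged 37.2 ± 3.37 CPM with cytokines and 4.95 ± 0.435 CPM with vehicle (± SD of 3 libraries each; log2 fold change 2.91 with SE 0.23, edgeR adjusted p = 2.8e-07). It averaged 35.6 ± 2.69 CPM with the combination and 6.51 ± 2.78 CPM with ML351 (log2 fold change 2.46 with SE 0.22, edgeR adjusted p = 9.5e-07).

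Mycl (chromosome 4, 122995652 to 123002485), which encodes the L-MYC relative, rose as well but from few counts. It had 42, 33 and 16 counts with the combination and 42, 29 and 19 with cytokines, against 13, 11 and 14 with ML351 and 16, 8 and 0 with vehicle. The groups did not overlap, and vehicle replicate 4 held none. The log2 fold change was 1.92 with cytokines against vehicle (SE 0.63, edgeR adjusted p = 0.012) and 1.53 with the combination against ML351 (SE 0.59, edgeR adjusted p = 0.03). By counts the cytokine libraries held 385% of the vehicle level (95% interval 243% to 631%) and the combination libraries 293% of the ML351 level (199% to 440%). Against vehicle the call was kept throughout, with values of 1.36 without vehicle replicate 4 and 2.84 without vehicle replicate 1. The call against ML351 was lost in 6 of 23 alternatives. These were the fit with acinar markers as a covariate (1.48, adjusted p = 0.1) and those without ML351 replicate 1 (1.61, 0.053), 2 (1.38, 0.094) or 3 (1.6, 0.056) or combination replicate 1 (1.2, 0.12) or 2 (1.53, 0.055).

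Genes of the MYC network moved in both directions, whereas many MYC targets rose. The network list holds partners, competitors and relatives of MYC. Of 12 genes of the MYC network, all measured, 3 rose and 6 fell with cytokines (median log2 fold change -0.37) and 3 rose and 5 fell with the combination against ML351 (median -0.33). The rises were 25% in both comparisons, against 35.3% and 35.2% of all genes. The falls were 50% and 41.7%, against 37.2% and 36.4%. Max, the obligate partner, was at 0.4 and 0.07 (edgeR adjusted p = 0.14 and 0.8). Zbtb17, which encodes the MYC-binding factor MIZ1 (1.43 and 1.38), Mxd1, of a competitor for MAX (0.57 and 0.78), and Mlxip (0.2 and 0.31) rose. Mlxipl, the gene of the glucose-sensing factor ChREBP (-2.35 and -2.13), and Mga (-1.02 and -0.97) fell. Mycn, another family member, fell with cytokines (-1.59, edgeR adjusted p = 0.04) and was at -0.75 with the combination (adjusted p = 0.3). Of 28 established MYC target genes, 20 rose and 7 fell with cytokines (median 0.58) and 18 rose and 7 fell with the combination (median 0.53). Their rises were 71.4% and 64.3%, against the same shares of all genes. Rises included Npm1 (1.35 and 1.26) and Gnl3 (1.26 and 1.12), both of the nucleolus, and Ldha (1.84 and 1.87), of glycolysis and also a disallowed gene. The cell-cycle gene E2f1 (-2.42 and -2.74), the telomerase gene Tert (-4.26 and -3.64) and Cad, of pyrimidine synthesis (-1.3 and -1.4), fell.

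**Figure D3:**
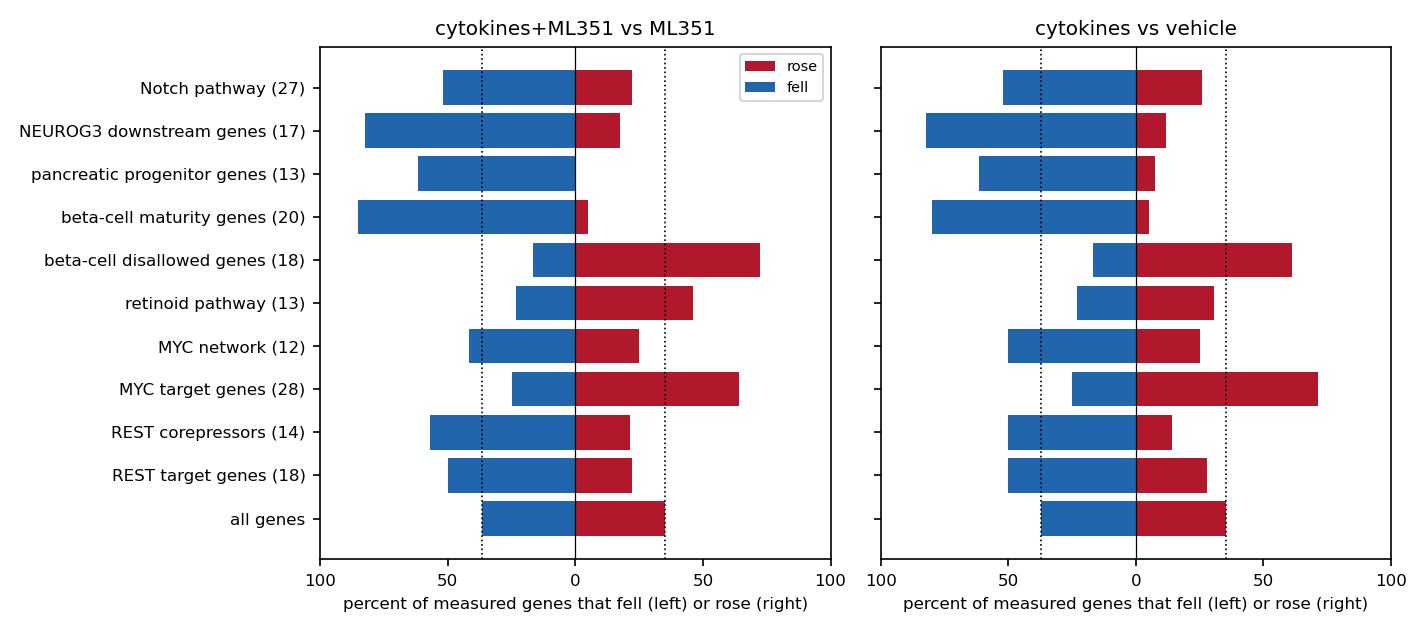
Percent of the measured genes of each list that fell (left of 0) or rose (right of 0) in the edgeR test, with the combination against ML351 and with cytokines against vehicle; the number measured stands beside each list and dotted lines mark the shares of all genes. The shares of all genes are 36.4% lower and 35.2% higher for the combination and 37.2% lower and 35.3% higher for cytokines, and the NEUROG3 downstream and β-cell maturity lists extend farthest to the left.

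ML351 moved none of the 8 genes past the threshold. The edgeR count was 0 of 8 with ML351 against vehicle (0.0355% of all genes called), 0 of 8 with the combination against cytokines (1.43%), 0 of 8 for ML351 averaged over both backgrounds (1.55%) and 0 of 8 for the interaction of both treatments (0.0071%). DESeq2 and limma-voom also gave 0 in each. At an unadjusted p under 0.05 the edgeR counts were 0, 1, 1 and 1, against 8.98%, 15.7%, 16.9% and 8.23% of all genes. The 3 single genes were Sox9, Aldh1a3 and Neurog3.

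Aldh1a3 was higher on average with ML351 in both backgrounds. The log2 difference was 0.73 with the combination against cytokines (95% interval -0.02 to 1.49, edgeR adjusted p = 0.33) and 0.48 with ML351 against vehicle (-0.15 to 1.12, adjusted p = 0.7). Averaged over both backgrounds it was 0.61 (0.11 to 1.1, unadjusted p = 0.019, edgeR adjusted p = 0.2), and the interaction was 0.25 (adjusted p = 0.93). The Sox9 log2 difference was 1.98 for the combination against cytokines (0.38 to 3.59, edgeR adjusted p = 0.22) and its interaction was 1.7 (-0.62 to 4.02, adjusted p = 0.71). Without combination replicate 2 these values were 1.01 and 0.73, and without cytokine replicate 4 they were 2.76 and 2.48. Neurog3 was lower in every combination library than in every cytokine library, but the nearest pair held 1 count each, and the combination libraries held 29.8% of the cytokine level with an interval of 3.02% to 156%. Its log2 difference was -1.59 with the combination against cytokines (-3.29 to 0.11, edgeR adjusted p = 0.42) and 0.36 with ML351 against vehicle (-0.17 to 0.88, adjusted p = 0.74), and the interaction was -1.95 (-3.73 to -0.17, unadjusted p = 0.044, edgeR adjusted p = 0.59). At such counts these edgeR intervals, except that of ML351 against vehicle, are too narrow. For the combination against cytokines, Neurog3 was the 1 gene of the 8 whose groups did not overlap, against 20.4% of all genes.

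Rest was at 0.62 with the combination against cytokines (95% interval -0.06 to 1.3, edgeR adjusted p = 0.37) and at 0.21 with ML351 against vehicle (-0.53 to 0.96, adjusted p = 0.92). Myc was at -0.06 (-0.5 to 0.37, edgeR adjusted p = 0.92) and 0.38 (-0.14 to 0.91, adjusted p = 0.71) in the same comparisons, and the second value was -0.02 without ML351 replicate 1. Hes1 was at -0.03 (-0.36 to 0.3, edgeR adjusted p = 0.95) and -0.24 (-0.56 to 0.07, adjusted p = 0.7), and it was the 1 gene of the 8 whose ML351 and vehicle libraries did not overlap, against 15.9% of all genes. Gast was at -0.1 (-1.12 to 0.93) and -0.14 (-0.92 to 0.63), and Mycl at 0.09 (-1.08 to 1.26) and 0.48 (-0.94 to 1.9), with edgeR adjusted p between 0.9 and 0.97. For each gene but Myc and Hes1, the interval in at least 1 background reached beyond 1 log2 unit. The combination libraries serve in both the comparison with cytokines and that with ML351, so these values are not independent.

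**Figure D4:**
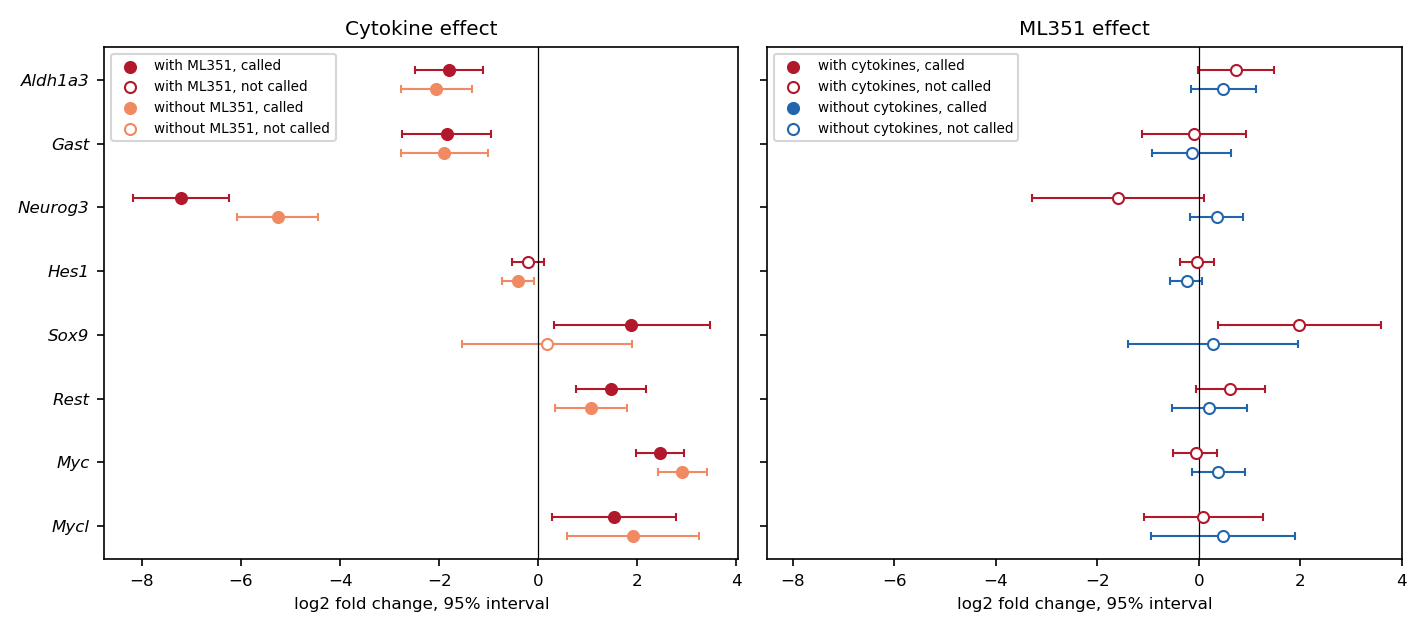
Log2 fold change with its 95% interval for each of the 8 genes, with filled points for genes called by edgeR at an adjusted p of 0.05; the left panel shows cytokines with ML351 present (combination against ML351) and absent (cytokines against vehicle), and the right panel shows ML351 with cytokines present and absent. On the left 7 of 8 points are filled in each series, from -7.21 for Neurog3 to 2.91 for Myc, and on the right none is. The Neurog3 intervals that involve libraries with cytokines are narrower than counting error alone would give.

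In the related pathway and β-cell lists, 3 genes passed the test in an ML351 comparison. Hhex was higher with the combination than with cytokines (1.07, edgeR adjusted p = 0.029) and higher with ML351 averaged over both backgrounds (0.6, adjusted p = 0.045). In the averaged comparison the imprinted Notch ligand gene Dlk1 was lower (-0.7, adjusted p = 0.044) and the nucleolar gene Nop56 higher (0.19, adjusted p = 0.044). Among the lists of cell-type markers, only those of macrophages and endothelial cells held more than 1 called gene in an ML351 comparison. In each ML351 comparison 0 of 12 β-cell, 0 of 10 α-cell and 0 of 14 stellate and fibroblast markers were called. At most 1 was called of 18 ductal markers, of 20 acinar markers and of 8 markers of δ cells and pancreatic polypeptide cells. With the combination against cytokines that 1 gene was 5.56%, 5% and 12.5% of these lists, against 1.43% of all genes. In the last list it was Hhex, named above. Of 15 macrophage markers 5 fell with ML351 averaged over both backgrounds (1.55% of all genes called), 2 with the combination against cytokines (1.43%) and 1 with ML351 against vehicle (0.0355%), the last being Clec7a, a pattern receptor gene (-0.67, edgeR adjusted p = 0.042). Of 13 endothelial markers 4 fell with the combination against cytokines, among them Plvap (-1.09, edgeR adjusted p = 0.027).

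The order of the genes by level per length of exon differed between conditions. With the combination, Myc (13.1 ± 0.99 CPM per kb of exon, SD, n = 3) and Hes1 (2.5 ± 0.297) led, followed by Sox9 (1.41 ± 1.24), Gast (0.646 ± 0.311), Aldh1a3 (0.561 ± 0.194), Rest (0.548 ± 0.209) and Mycl (0.359 ± 0.152), with Neurog3 last (0.0185 ± 0.0161). With cytokines the order was Myc (13.7 ± 1.24 CPM per kb), Hes1 (2.57 ± 0.391), Gast (0.7 ± 0.261), then Sox9, Rest, Aldh1a3 and Mycl between 0.337 and 0.365 and again Neurog3 last (0.0639 ± 0.0313). With ML351 it was Neurog3 (3.32 ± 0.92 CPM per kb), Hes1 (2.88 ± 0.0908), Myc (2.4 ± 1.02), Gast (2.39 ± 0.145), Aldh1a3 (1.97 ± 0.375), Sox9 (0.385 ± 0.111), Rest (0.199 ± 0.0551) and Mycl (0.124 ± 0.0216). With vehicle it was Hes1 (3.42 ± 0.246 CPM per kb), Gast (2.65 ± 0.224), Neurog3 (2.59 ± 0.241), Myc (1.82 ± 0.16), Aldh1a3 (1.41 ± 0.481), Sox9 (0.314 ± 0.0513), Rest (0.172 ± 0.0454) and Mycl (0.0869 ± 0.0842). Neighbours in that order whose mean ± SD ranges overlapped were the genes from Hes1 to Mycl with the combination and from Gast to Mycl with cytokines. With ML351 they were the first 5 genes and also Rest and Mycl, and with vehicle they were Gast and Neurog3, Myc and Aldh1a3, and Rest and Mycl. Per length of exon, Neurog3 was the least abundant of the 8 with cytokines and among the 3 most abundant without them.

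Among the 8879 genes whose log2 CPM averaged 3 or more, the closest patterns over the 12 libraries, by Pearson's r of log2 CPM, were those of BC017158 (0.998), Dcaf11 and Sv2a (0.996 each) for Neurog3 and of Plet1, Xdh (0.998 each) and Ltf (0.997) for Myc. They were those of Bbs2, Xrcc6 (0.989 each) and Zhx2 (0.987) for Gast, and of Dhx57 (0.975), Echdc1 (0.969) and Ppdpf (0.959) for Aldh1a3. Values were lower for Rest (Bnip2, 0.94), Mycl (Sgms1, 0.921), Hes1 (Kdsr, 0.916) and Sox9 (Ubox5, 0.873). The 12 libraries form 2 sets, with and without cytokines, and these values describe mainly the difference between the sets.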

How the data were processed

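The authors deposited whole-number counts of reads per gene symbol, 1 column per library, not normalized. Per the labels' protocols cDNA was prepared with SMARTSeq v4 without strand information. Build mm10 and STAR, Subread, featureCounts, DESeq2 and FastQC come from the submitters' processing notes, which give no roles. The annotation and any filter are not stated in the sources. Groups follow the labelled agent. Counts were tested in R 4.3.3 with edgeR 4.0.16 (TMM, filterByExpr, which removed none of 14089 genes, robust glmQLFit), all 12 libraries in 1 model, with Benjamini-Hochberg adjustment over all genes and calls at 0.05. SE is the absolute log2 value over the root of F, which is too small where counts are near 0. Intervals are 95% (t for fold changes, exact for count ratios). CPM use TMM-scaled totals. The procedure was tested on simulated counts. Alternatives were other scalings, filters, DESeq2 1.42.0, limma-voom (limma 3.58.1), a replicate block, an acinar covariate, fewer groups and leaving out each library. Loci are from GENCODE M21. Genes named from a list are mostly among its 3 largest rises and falls of called genes in a comparison (log2 CPM averaging 0 or more) or have a role that bears on a member; not all of these are named. The 8 genes and the lists were chosen with earlier results of these data known. Some genes of the lists are not reported here by name.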

Additional observations from a re-analysis of the deposited data

How the results depend on the processing

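Each result was recomputed under 23 alternatives, or 22 for the averaged effect and the interaction, which need all 4 groups. Neurog3 and Gast had 22 with the combination against cytokines, as the fit of only those groups gave no value. The calls of Aldh1a3, Neurog3, Myc and Gast in both cytokine comparisons kept their direction and their side of the threshold in all of them, and the lost calls of Rest, Hes1, Sox9 and Mycl stand beside their values above. The members called stayed between 5 and 7 in each cytokine comparison, and at 0 in each ML351 comparison. Genes called with cytokines against vehicle ran from 9618 to 10283, and with the combination against ML351 from 8935 to 10242. Upper-quartile scaling moved the median of all genes by -0.123 and -0.118 in these comparisons, turned no direction of the 8 genes there, and changed the split to 4332 higher and 5951 lower with cytokines and to 4298 higher and 5851 lower with the combination.

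Counts of all genes in the ML351 comparisons were less stable. With ML351 against vehicle, 5 genes were called, against 0 with RLE size factors, 2 with upper-quartile scaling, 0 without Ins1 and Ins2, 104 with DESeq2, 9 with limma-voom, 0 with the acinar covariate, 16 with only those groups, and 0 to 17 when 1 library was left out. For the combination against cytokines the count was 202 (91 higher, 111 lower), against 78 with library totals alone (56 higher, 22 lower), 521 with DESeq2, 48 with the acinar covariate, 59 with only those groups and 54 to 236 without 1 library. RLE size factors gave 71 higher and 142 lower. For the averaged effect it was 218 (94 higher, 124 lower), against 398 with library totals (340 higher, 58 lower), 571 with DESeq2, 84 with the acinar covariate and 52 to 270 without 1 library. For the interaction it was 1, against 0 with library totals, 44 with DESeq2, 0 with the acinar covariate and 0 to 1 without 1 library. The cause was not tested.

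The replicate numbers showed little sign of pairing. Of 13 same-numbered pairs 2 had a correlation of deviations over 0.1 (range -0.38 to 0.2), and 3 of 12 libraries correlated best with their own number. With 3 libraries a group, such correlations cannot settle whether same-numbered libraries were paired. With the replicate block, 7 and 6 of the 8 genes were called in the cytokine comparisons, Sox9 (1.65, edgeR adjusted p = 0.15) being the call lost. Genes called under the block were 0 with ML351 against vehicle, 53 with the combination against cytokines, 88 averaged and 0 for the interaction. Counting error bears on several genes: Gast and Mycl had under 50 counts in 12 of 12 libraries, Sox9 in 9, Rest in 8, Neurog3 in 6 and Aldh1a3 in 4.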
